A study of Homo sapiens with 9 samples.

Results

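The regions described here are places where NKX2-1 was called in the lung adenocarcinoma cell line NCI-H3122 but in neither NCI-H1819 nor NCI-H2087, and where no FOXA1 peak was called in H3122. Overlapping peaks of the 4 NKX2-1 lists on chromosomes 1 to 22 and X were merged into 59679 regions. Of these, 47751 held a peak of H3122 replicate 2, 34155 of those held no H1819 or H2087 peak, and 17737 of these 34155 overlapped no FOXA1 peak by 1 bp or more, which is 37.1% of the regions with a replicate 2 peak. The 17737 regions are called FOXA1-free H3122-only regions below, and the other 16418 H3122-only regions are called those with FOXA1. The regions were chosen by the peak calls of H3122 replicate 2, H1819, H2087 and FOXA1, so values from these lists describe them and carry no test. Replicate 1 peaks took part in the merging, which gives 17738 regions when they are left out, but a replicate 1 peak was neither required nor barred. The tests rest on replicate 1 and on the position on the chromosome.

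Binding was mapped by chromatin immunoprecipitation and sequencing (ChIP-seq), in which protein is fixed to DNA and the DNA recovered with an antibody is sequenced. NKX2-1 was precipitated with a Bethyl antibody in H3122 (2 lists, replicates 1 and 2), H1819 (1 list) and H2087 (1 list), and FOXA1 with an Abcam antibody in H3122 alone (1 list). All 3 lines carry an amplification of NKX2-1 according to the series text and were grown in RPMI1640 medium with serum, with no treatment named in the labels. Of the 9 samples, the 4 input libraries were not analysed here, and nothing in the labels says that the H3122 replicates came from separate cultures. No expression values were used, so the identity of the lines was not checked, and whether FOXA1 bound in H1819 or H2087 was not measured.

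NKX2-1 (TTF-1) is a DNA-binding homeodomain protein required for lung and thyroid development, and it maintains the identity of alveolar and airway epithelium. In lung adenocarcinoma it marks tumours of the terminal respiratory unit and is amplified in some of them. FOXA1 is a forkhead pioneer factor that can bind its sites in closed chromatin and is known to occupy many lung enhancers together with NKX2-1. The regions here are those where NKX2-1 was recovered in H3122 and no peak of that partner was called.

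The numbers of peaks used were 7467 and 48061 in replicates 1 and 2 of H3122, 13482 in H1819, 14434 in H2087 and 42427 for FOXA1. Each peak has a score given by the authors, read as 10 times the negative log10 of its p-value. The lowest score was 50 in replicate 1 and 60 in the other lists. The depth of the libraries is unknown. The absence of a peak means that none was called, and cannot be told apart from too few reads. No H1819 or H2087 peak was called in 71.5% (71.1 to 71.9) of all regions with a replicate 2 peak. With the replicate 2, H1819, H2087 and FOXA1 lists each limited to their 13482 best peaks it was 54.5% (53.7 to 55.4), or 7329 of 13441 regions. Of these 7329, 3818 had no peak of the shortened FOXA1 list.

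FOXA1 was missing from H3122-only regions as often as from NKX2-1 regions in general. Of the 34155 H3122-only regions 51.9% had no FOXA1 peak (95% Wilson interval 51.4 to 52.5), against 52.0% of all 47751 regions with a replicate 2 peak. The Wilson intervals here and below cover counting error only. The share near this background says nothing particular about binding confined to H3122.

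The FOXA1-free H3122-only regions were mostly weakly scored. Their replicate 2 scores ran from 60 to 3100 with a median of 96.6, a lower quartile of 73.5 and an upper quartile of 146. Scores under 70, close to the lowest score in the list, were held by 3418 of them, or 19.3%. The H3122-only regions with FOXA1 had a median of 164 and quartiles of 97.5 and 314, and 7.91% scored under 70. Regions without FOXA1 that were shared with H1819 or H2087 had a median of 156. The FOXA1-free H3122-only regions thus scored lowest of the 3 classes.

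A strong tail existed all the same. A score of at least 500 was reached by 316 FOXA1-free H3122-only regions, or 1.78%, and by 2083 of those with FOXA1, or 12.7%, against 11.0% of all regions with a replicate 2 peak. A score of at least 1000 was reached by 57 FOXA1-free and 561 FOXA1-bearing regions. Each region of both classes contained exactly 1 replicate 2 peak. Median widths were 582 bp for the FOXA1-free H3122-only regions, 662 bp for those with FOXA1 and 835 bp for the shared regions without FOXA1. A region spans all its merged NKX2-1 peaks, so H1819 and H2087 peaks can widen the shared regions, and replicate 1 peaks any region. The FOXA1-free H3122-only regions covered 11.0 Mb in all.

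**Figure D1:**
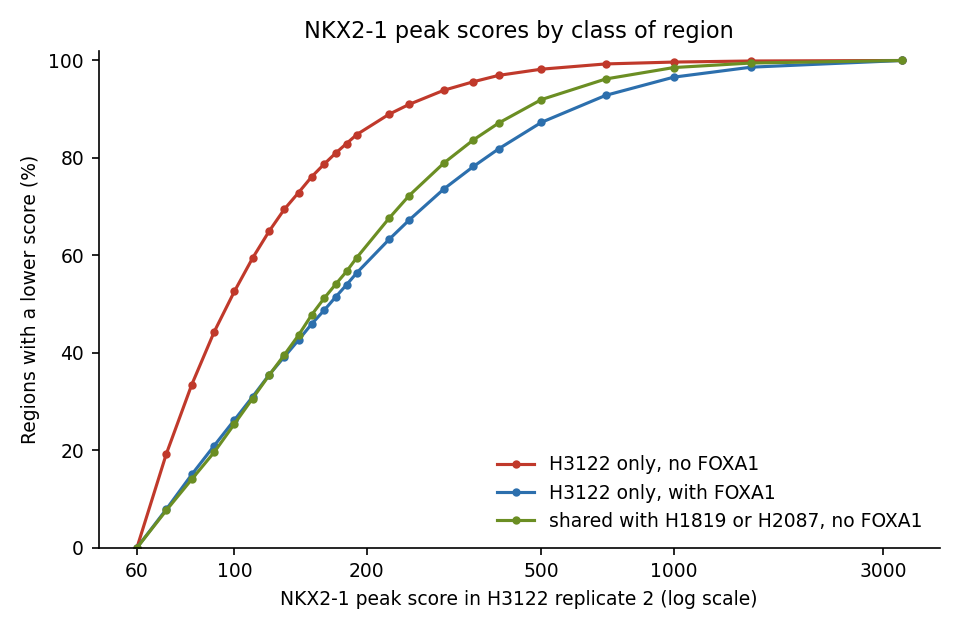
Cumulative share of regions (y axis, percent) below a given replicate 2 NKX2-1 score (x axis, log scale) in 3 classes. The curve of FOXA1-free H3122-only regions lies to the left, with a median of 96.6 against 164 with FOXA1 and 156 in shared regions without FOXA1, and the last pair run close together.

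Within H3122-only regions the absence of FOXA1 went with a low NKX2-1 score. In decile 1 of the replicate 2 score, the lowest (60 to 66.9), 72.8% of the regions had no FOXA1 peak (71.3 to 74.3). In decile 5 (100 to 119) it was 59.5% (57.9 to 61.2), and in the highest decile (407 to 3217) 15.4% (14.2 to 16.6). The share fell at each step of score. Narrow regions lacked FOXA1 more often as well, at 68.1% in the lowest decile of width (201 to 412 bp) and 37.4% in the highest (965 to 3441 bp). A wider region has more room to overlap a FOXA1 peak. Width also went with score: the median width of FOXA1-free regions was 475 bp in the lowest score decile and 767.5 bp in the highest. The 2 traits were not separated here.

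The replicate 1 list, whose peaks were merged but decided no region's class, recovered few of the FOXA1-free regions. A replicate 1 peak lay in 1049 of 17737 FOXA1-free H3122-only regions, 5.91% (5.58 to 6.27), and in 1862 of 16418 with FOXA1, 11.3% (10.9 to 11.8). Among all regions with a replicate 2 peak the share was 12.5%. In percentage points the FOXA1-free regions differed by -5.43 (-6.03 to -4.83; p = 1.86e-72 by a Fisher's exact test, two-sided, with regions as units), and the sign was negative on 23 of 23 chromosomes. The regions come from single libraries and are no replicate cultures, so this p and those below describe these lists. Over the 23 tests of region shares, matched ones included, the largest Benjamini-Hochberg adjusted p was 0.000105.

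At a given replicate 2 score the order was the other way round. In the highest decile replicate 1 had a peak in 229 of 526 FOXA1-free regions, 43.5% (39.4 to 47.8), and in 1114 of 2890 with FOXA1, 38.5% (36.8 to 40.3). In decile 8 (184 to 254) the shares were 11.8% (10.2 to 13.7) without FOXA1 and 7.36% (6.32 to 8.56) with it. In the lowest decile they were 1.33% (0.946 to 1.86) without FOXA1 and 0.861% (0.437 to 1.69) with it. FOXA1-free regions had the higher share in 10 of 10 deciles, although the interval of the difference lay above 0 in only 5 of them.

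Pooled over the score deciles the difference was 1.89 points (1.34 to 2.43; Mantel-Haenszel estimate), with FOXA1-free regions higher. It was above 0 on 19 of 23 chromosomes, the exceptions being 20, 21, 22 and X. The 2 classes were not fully matched in the highest decile, where the median score was 536 without FOXA1 and 633 with it. With 20 score classes the difference was 2.22 points (1.69 to 2.76). Matching on region width in place of score left it negative, at -3.01 points (-3.60 to -2.43), while matching on both score and width gave 2.08 points (1.54 to 2.62). The sign thus depended on whether the score was held fixed.

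**Figure D2:**
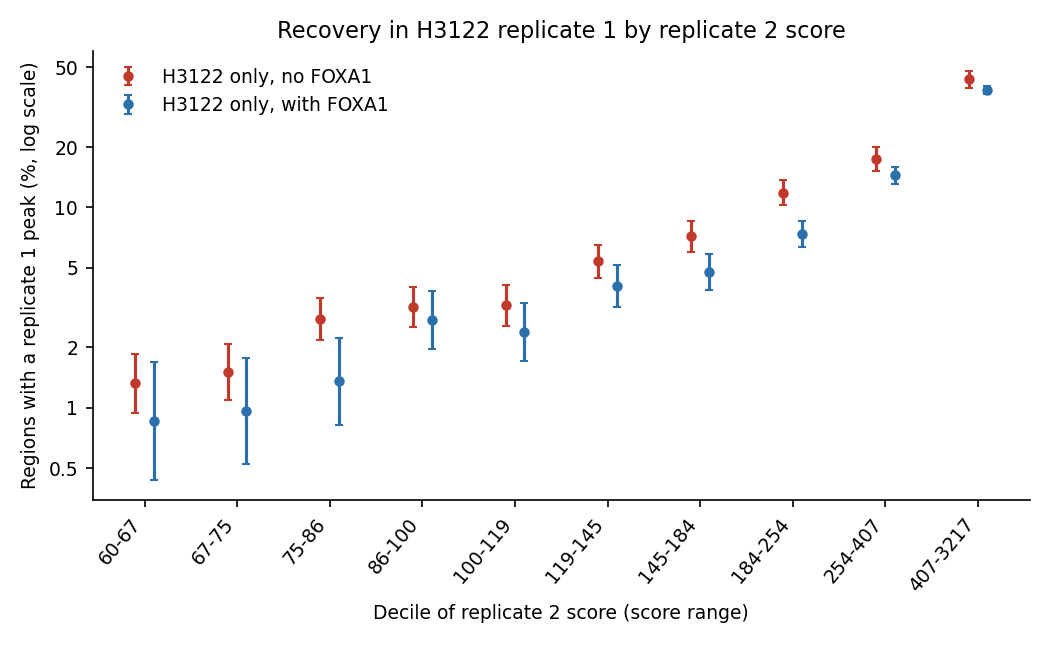
Share of H3122-only regions with a replicate 1 peak (y axis, percent, log scale) in deciles of the replicate 2 score (x axis, score range of each decile), without and with FOXA1; bars are 95% Wilson intervals. The point without FOXA1 is above the point with FOXA1 in all 10 deciles, and many of the intervals overlap.

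NKX2-1 regions without FOXA1 that were shared with another line were recovered in replicate 1 more often than those of H3122 only. Replicate 1 had a peak in 5.91% of FOXA1-free H3122-only regions and in 1182 of 7113 shared regions without FOXA1, 16.6% (15.8 to 17.5). The difference was -10.7 points (-11.6 to -9.78; Fisher's exact p = 3.98e-142). It was -4.33 points (-5.22 to -3.43) within score deciles, with a lower share in the H3122-only regions in 10 of 10 deciles. Shared regions include the span of the H1819 or H2087 peaks and were wider, with a median of 835 bp against 582 bp. A wider region has more room for a replicate 1 peak, and this contrast was not matched on width. Regions shared with H1819 alone had a replicate 1 peak in 14.4% of cases, those shared with H2087 alone in 13.1% and those in all 3 lines in 28.0%. Within score deciles the difference of the FOXA1-free H3122-only regions from these was -3.65, -3.05 and -11.4 points, in the same order.

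The 1049 FOXA1-free H3122-only regions seen in both replicates had higher replicate 2 scores than the other 16688. Their median replicate 2 score was 199 (quartiles 118 and 364), against 94.1 (72.7 and 138) in those without a replicate 1 peak. A score of at least 500 was found in 171 of them, or 16.3%, against 145, or 0.869%. Their replicate 1 scores were modest, with a median of 70.9, quartiles of 59.5 and 90.1 and a maximum of 340. Median width was 729 bp in the regions seen in both replicates, where the replicate 1 peak counts toward the width, and 573 bp in the rest. The distance to FOXA1 hardly differed, with medians of 11995 bp in the regions seen in both and 12741 bp in the rest. The score difference was not particular to these regions. Over all regions with a replicate 2 peak the median score was 455 with a replicate 1 peak and 124 without.

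By mean rank over both replicates, the first FOXA1-free H3122-only region lay in band 5p15.33, at chr5:814593-815785 in hg18. It scored 317 in replicate 1 and 2412 in replicate 2. The nearest FOXA1 peak was 167972 bp away, the nearest H1819 peak 156672 bp and the nearest H2087 peak 146512 bp, so no other list came close to it. The second lay in 1p34.2 (chr1:40179037-40179872, scores of 340 and 1536) with FOXA1 at 18931 bp. Next were regions in 1q32.1 (chr1:203677444-203678205, 272 and 1947), 2p22.2 (chr2:36579833-36580563, 264 and 1375) and Xq28 (chrX:148358677-148359377, 279 and 1141). Of these 5, the one in 2p22.2 was nearest to a FOXA1 peak, at 5800 bp.

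Some strong replicate 2 peaks were not called in replicate 1 at all. The highest was in 12q21.33 (chr12:88101649-88102555) with a score of 1914, and a FOXA1 peak with a score of 132 began 376 bp away. The next were in 21q22.3 (chr21:46058339-46059519, score 1751, FOXA1 at 3124 bp) and 7q36.3 (chr7:157417791-157418636, score 1654, FOXA1 at 68267 bp). Regions in 8q24.22 and 2q31.1 followed, with scores of 1474 and 1406. Of these 5, the region in 12q21.33 was the one with a FOXA1 peak within 500 bp.

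FOXA1-free did not mean far from FOXA1. The median distance to the nearest FOXA1 peak was 12723 bp, with quartiles of 3359 and 36140 bp. A FOXA1 peak lay within 500 bp of 1183 regions, 6.67% (6.31 to 7.05), within 1000 bp of 11.6%, within 10000 bp of 45.0% and within 100000 bp of 93.5%. These shares were not set against those of other regions or of positions placed at random. With 42427 FOXA1 peaks over the chromosomes, many positions would have one within 100000 bp. The shares therefore do not show that the regions lie nearer to FOXA1 than other positions do. The 3 closest, in 2p15, 7p15.3 and 9q22.32, adjoined a FOXA1 peak with no base between and scored 87.0, 65.8 and 139. Just outside the rule, regions in 5q23.2 and 20q12 shared 1 bp with a FOXA1 peak and one in 1p36.13 shared 2 bp, with scores of 190, 62.7 and 163. Such narrow overlaps were rare: 177 of the 16418 FOXA1-bearing regions, or 1.08%, overlapped by under 100 bp, and the median overlap was 531 bp.

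A few strong regions were remote from FOXA1. Among those with a score of at least 500 the most distant was in Xq25 (chrX:127285261-127285954), 302451 bp from FOXA1, with scores of 76.7 in replicate 1 and 1123 in replicate 2. Regions in 12q24.33 (chr12:130558310-130559017, 239650 bp, scores of 211 and 953) and 11q23.3 (chr11:119076173-119077089, 218499 bp, scores of 190 and 515) came next. The region in 5p15.33 was the fourth, and one in 16p13.12 (chr16:12972332-12973164, 151203 bp, scores of 103 and 690) the fifth. All 5 had a peak in replicate 1.

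The intervals of recovery in replicate 1 overlapped between the classes of distance to FOXA1, and no test was run. Recovery was 6.26% (5.01 to 7.78) in the 1183 regions within 500 bp of a FOXA1 peak, 6.11% (5.22 to 7.13) at 5000 to 10000 bp and 6.08% (4.84 to 7.61) in the 1152 regions beyond 100000 bp. Weighted to the score distribution of all FOXA1-free H3122-only regions, it was 5.85% within 500 bp, 5.35% at 500 to 1000 bp and 6.55% beyond 100000 bp. Median replicate 2 scores stayed between 92.6 and 101 over the 7 classes of distance. By distance to the other lines the intervals overlapped as well. Recovery was 5.53% (3.77 to 8.04) in the 452 regions within 500 bp of an H1819 or H2087 peak and 5.73% (5.11 to 6.43) beyond 100000 bp. With the same weighting the 2 shares were 6.67% and 5.31%, in the same order.

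**Figure D3:**
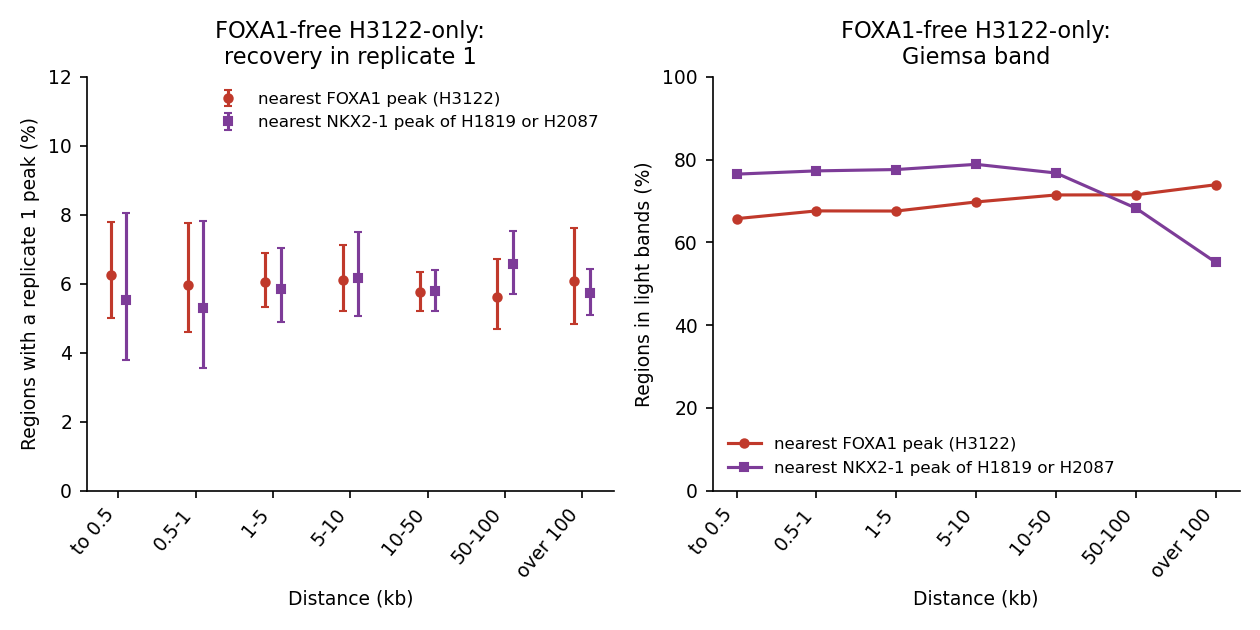
FOXA1-free H3122-only regions in 7 classes of distance (x axis, kb) to the nearest FOXA1 peak or the nearest NKX2-1 peak of H1819 or H2087. Left, share with a replicate 1 peak (percent, bars are 95% Wilson intervals), which stays between 5.29% and 6.57%; right, share in light Giemsa bands among those in light or dark bands (percent), which is 55.2% beyond 100 kb from H1819 and H2087 peaks and 73.9% beyond 100 kb from FOXA1 peaks.

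Near misses in the other lines were uncommon but more frequent than at FOXA1-bearing regions. An H1819 or H2087 peak lay within 1000 bp of 887 FOXA1-free H3122-only regions (Wilson interval 4.69% to 5.33%) and of 566 with FOXA1 (3.18% to 3.74%). Median distances to H1819 peaks were 73206 bp without FOXA1 and 86274 bp with it. To H2087 peaks they were 80562 bp without FOXA1 and 120904 bp with it. These distances belong to the lists that chose the regions and were not tested.

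H3122-only regions in light chromosome bands lacked FOXA1 more often than those in dark bands. Giemsa staining divides chromosomes into light bands, which are rich in genes and in G and C, and dark bands, which are poor in both. Of the H3122-only regions in light bands (unstained and lightest stained), 10611 of 18933 had no FOXA1, 56.0%. In dark bands (the 2 darkest classes) it was 4535 of 10241, 44.3%. The difference was 11.8 points (10.6 to 13.0; Fisher's exact p = 3.62e-82), with light bands higher on 21 of the 21 chromosomes that had regions in both. Put the other way, 70.1% of the FOXA1-free H3122-only regions in light or dark bands were in light ones, against 59.3% of those with FOXA1 and 68.5% of all regions with a replicate 2 peak. Light bands held 82.4% (5006 of 6078) of the regions without FOXA1 that were shared with H1819 or H2087. A high share in light bands is therefore not particular to the FOXA1-free H3122-only regions. Shared regions with and without FOXA1 were not tested against each other. The contrast is therefore not shown to be particular to H3122-only regions.

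The band difference was also present at matched score. Within score deciles it was 9.13 points (8.01 to 10.3; Mantel-Haenszel estimate), and the interval lay above 0 in 10 of 10 deciles. In the lowest decile 75.7% of light-band and 67.0% of dark-band regions had no FOXA1. In the highest decile 18.1% of light-band and 11.8% of dark-band regions had none. In regions with a peak in both H3122 replicates the difference was 14.6 points (10.6 to 18.5). A like contrast between peaks with and without FOXA1 was known from earlier results of these data, and base composition was not measured here.

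**Figure D4:**
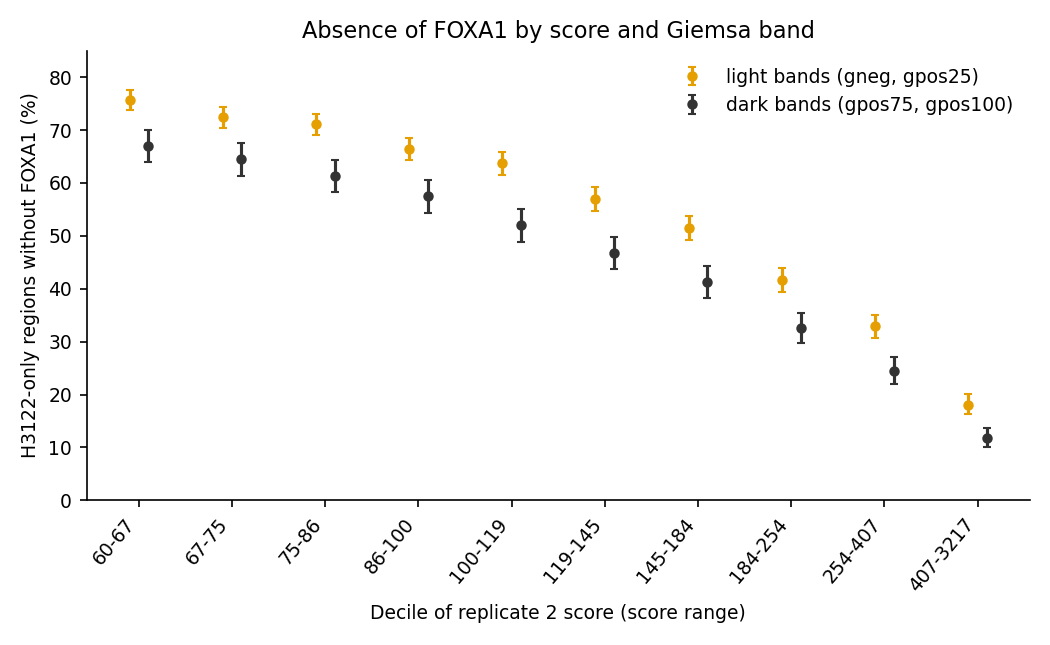
Share of H3122-only regions without FOXA1 (y axis, percent) in deciles of the replicate 2 score (x axis), in light and dark Giemsa bands; bars are 95% Wilson intervals. Light bands are higher in all 10 deciles, by 6.29 to 11.7 points, while the share falls with score in both.

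The density of FOXA1-free H3122-only regions changed across the stain classes, at 7.04 per Mb in unstained, 7.57 in the lightest stained, 6.07 in the middle, 5.57 in the next and 4.59 in the darkest bands. H3122-only regions with FOXA1 had densities of 5.62, 5.36, 5.65, 6.56 and 6.13 per Mb in the same classes. Median scores of FOXA1-free regions differed little between these 5 classes, from 95.5 to 98.5.

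Light bands were commoner still in other FOXA1-free sets. Of the FOXA1-free H3122-only regions with a replicate 1 peak 78.2% lay in light bands, against 69.5% of those without, a difference of 8.63 points (5.71 to 11.3; Fisher's exact p = 2.02e-08) that was 10.4 points (7.45 to 13.32) within score deciles. Replicate 1 peaks leaned to light bands with FOXA1 as well. They lay in 12.1% of light-band and 9.55% of dark-band H3122-only regions with FOXA1. This lean is therefore not particular to FOXA1-free regions. FOXA1-free H3122-only regions lay in light bands in 70.1% of cases and shared regions without FOXA1 in 82.4%, a difference of -12.3 points (-13.5 to -11.1; p = 1.97e-79, Fisher's exact test). The share in light bands also moved with distance, in opposite directions for the 2 kinds of peak. Within 500 bp of an H1819 or H2087 peak 76.5% of FOXA1-free H3122-only regions were in light bands, and beyond 100000 bp 55.2% were. Within 500 bp of a FOXA1 peak it was 65.7%, and beyond 100000 bp 73.9%.

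Recovery in replicate 1 was also compared within each kind of band. In light bands it was 6.62% without FOXA1 and 12.1% with it, and in dark bands 4.32% without and 9.55% with. At matched score the FOXA1-free regions were higher by 1.79 points (1.01 to 2.58) in light bands and by 1.66 points (0.807 to 2.50) in dark bands. The difference at matched score was therefore present in both kinds of band.

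By chromosome, the share of H3122-only regions without FOXA1 was highest on 19, at 73.2% (69.7 to 76.4; 497 of 679), then on 22 at 66.7% (61.8 to 71.2) and 16 at 63.1% (59.4 to 66.7). It was lowest on 13, at 43.5% (40.9 to 46.2; 576 of 1324), with 48.1% on 5 (46.1 to 50.2) and 48.2% on 4 (46.0 to 50.3). Chromosome 19 is known as the most gene-rich of the human chromosomes and 13 as one of the poorest. Gene density was not measured here, and its relation to these shares was not tested. X, at 59.2% (55.8 to 62.5), and 18, at 55.2% (51.4 to 58.9), were also above the 51.9% of all chromosomes. Weighting each chromosome to the score distribution of all H3122-only regions moved 19 to 67.9%, 22 to 64.0%, 16 to 60.7% and 13 to 45.3%. Chromosomes were not tested against one another. The interval of 22 overlaps those of 19, 16 and 17 (62.3%, 59.2 to 65.2), and those of 5, 4 and 13 overlap one another. Such overlap alone does not show that the shares are alike. Chromosomes 19 and 22 had no H3122-only regions in dark bands.

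**Figure D5:**
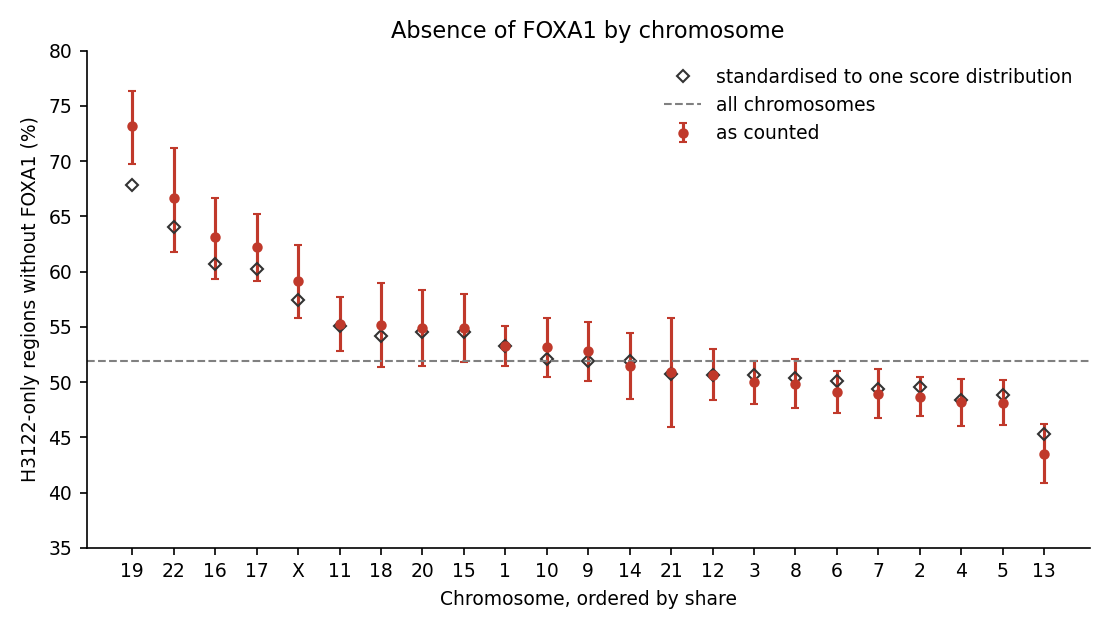
Share of H3122-only regions without FOXA1 (y axis, percent, starting above 0) on each chromosome (x axis, from highest to lowest); bars are 95% Wilson intervals, diamonds the share weighted to a common score distribution, and the dashed line the 51.9% of all chromosomes. Chromosomes 19, 22, 16 and 17 are the highest of those above the line, followed by X at 59.2%, and 13 is furthest below.

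Neighbouring H3122-only regions were compared by the distance between them. Where the next H3122-only region along the chromosome was at most 2000 bp away, it lacked FOXA1 in 52.9% (50.5 to 55.3) of cases after a FOXA1-free region and in 41.4% (39.2 to 43.5) after one with FOXA1. At 2000 to 10000 bp the shares were 50.5% (48.7 to 52.4) after a FOXA1-free region and 47.1% (45.3 to 48.9) after one with FOXA1, and these intervals overlap. At 10000 to 50000 bp they were 55.0% (53.7 to 56.3) and 49.1% (47.7 to 50.4) in the same order. At 50000 to 200000 bp they were 56.2% (54.9 to 57.5) and 51.7% (50.3 to 53.1), and beyond that 58.0% (55.7 to 60.2) and 52.5% (50.0 to 55.0). The gap was therefore present at long distances as well and did not shrink steadily with distance. FOXA1-free H3122-only regions had another replicate 2 region within 10000 bp in 51.3% (50.6 to 52.1) of cases, and those with FOXA1 in 56.0% (55.3 to 56.8).

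The regions were spread widely, with at least 1 in 2627 of 3033 windows of 1 Mb and a mean of 5.85 per window. The window with the most was in 12q21.33 (88 to 89 Mb), with 28 of 60 H3122-only regions free of FOXA1, followed by 5q23.2 (124 to 125 Mb) with 27 of 59 and 4q31.23 (148 to 149 Mb) with 26 of 49. These also held many FOXA1 peaks, 62, 78 and 39. Windows in 12p13.31 (6 to 7 Mb) and 15q15.1 (38 to 39 Mb) had 25 of 32 and 25 of 33 free of FOXA1, or 78.1% (61.2 to 89.0) and 75.8% (59.0 to 87.2). A window at the border of 3p13 and 3p14.1 tied with these, with 25 of 47. Replicate 1 had a peak in 5 of the 25 regions in 12p13.31, 4 of the 25 in 15q15.1 and 2 of the 25 at the border of 3p13 and 3p14.1. It had a peak in 1 of the 28 in 12q21.33 and in 0 of those in 5q23.2 and 4q31.23. Over all FOXA1-free H3122-only regions the share was 5.91%, and the counts per window are small.

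Band 14q13.3, where the amplified NKX2-1 gene lies, held 16 FOXA1-free regions among its 33 H3122-only regions, 48.5% (32.5 to 64.8), an interval that holds the 51.9% of all H3122-only regions. The density of FOXA1-free regions was 12.3 per Mb, against 5.87 per Mb over all chromosomes used, and that of the 17 regions with FOXA1 was 13.1 per Mb, against 5.43 per Mb. Copy number was not measured, and its part in these densities was not tested. Scores ran from 63.5 to 301 with a median of 93.7, and replicate 1 had a peak in 0 of the 16, where 5.91% of all FOXA1-free H3122-only regions had one. With only 16 regions, a count of 0 cannot be told apart from that share. The highest, at chr14:36620143-36620675, was 18264 bp from FOXA1, while the one at chr14:36311975-36312384 (score 125) was 1360 bp from a FOXA1 peak with a score of 2216.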

How the data were processed

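The submitters' processing notes name Bowtie, the build hg18 and, for peaks, MACS 1.4.0. Each deposited list gives peak positions and a score, the authors' own value. No source used here states its scale, the calling thresholds, the control libraries or the read depth. The names of the H1819, H2087 and FOXA1 lists hold tags that the name of the replicate 2 list lacks, and no source states their meaning. Whether these lists were called with the same settings is unknown. Peaks of the 4 NKX2-1 lists were merged where they overlapped by 1 bp. A region took the highest score of its peaks and the Giemsa band of its midpoint, with bands from circlize 0.4.16 and chromosome lengths from GenomeInfoDb 1.38.1 (R 4.3.3). A distance of 1 bp means adjoining peaks. Shares have 95% Wilson intervals, differences Newcombe intervals, and matched differences Mantel-Haenszel intervals over 10 classes (Python 3.11.15, scipy 1.17.1). The code was tested on simulated lists. Named regions followed a rule: the first 5 by mean rank, the first 5 without replicate 1, the 5 most distant from FOXA1 at scores of at least 500, those nearest the rule's edge, band 14q13.3, the densest windows and extreme chromosomes; a subset is named. The regions, lists and tests were chosen with earlier results of these data known. Alternatives varied scores, overlap rules, list length, matching, chromosomes and replicates. Sequence and gene annotation of hg18 were not used here.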

Additional observations from a re-analysis of the deposited data

Results flagged for a closer look

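Outside chromosomes 1 to 22 and X, H3122 replicate 2 had 10 peaks on sequence without a fixed position, and 7 of them overlapped no H1819, H2087 or FOXA1 peak. A count of 0 would allow up to 3, a limit not scaled to the 48071 peaks of the list, and 7 is above it. Of the regions on chromosomes 1 to 22 and X with a replicate 2 peak, 37.1% met the same rule, so the flag rests on the presence of such peaks and does not set these 7 apart. Their scores ran from 64.9 to 275, with a median of 123, and replicate 1 had a peak in 0 of the 7. They were left out of all comparisons.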

How the results depend on the processing

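Of 70 alternatives over 8 results, 44 kept the result, 11 moved it and 15 reversed it. Kept means the same sign and side of the threshold for tested differences, whose size could change by over 1.5 times (-10.7 points with shared regions became -4.33 within score deciles, and -5.43 with FOXA1-bearing regions became -2.57 at scores of at least 100, -2.94 with equal lists and -3.01 within width deciles), a value within the interval of the reported one for shares and medians, and a number of regions within 1.5 times the reported one, 12078 at scores of at least 100 included. All 15 reversals concern the lower replicate 1 recovery of FOXA1-free regions (-5.43 points) once the score was held fixed: 1.89 points in deciles, 0.979 with 5 classes, 2.22 with 20, 2.08 with width, 1.71 with bands, 1.79 in light bands and 1.66 in dark bands. Score deciles joined to another choice gave 0.750 at scores of at least 100, 1.72 with FOXA1 within 500 bp as present, 1.93 with an overlap of 100 bp, 1.92 with H1819 or H2087 within 500 bp as present, 5.07 with equal lists, 1.97 on autosomes, 1.89 merged without replicate 1 and 1.48 for replicate 1 scores of at least 60. The light-band difference stayed between 8.45 and 20.1 points in 12 alternatives. At scores of at least 100 the share without FOXA1 was 52.5%, the median score 157 and its difference from FOXA1-bearing regions -84.8 (-67.7 as reported). With FOXA1 within 500 bp as present the share was 48.5% and the difference -61.2. Equal lists gave 54.5% of replicate 2 regions with no H1819 or H2087 peak, 3818 regions, a median of 357 and a difference of -90.4. Leaving out 1 H3122 replicate gave 2359 to 17738 regions, a share of 51.9% to 55.1%, a median score of 96.6 and a difference of -67.7; the score results have no value without replicate 2. No paired analysis was possible because the other lists have 1 sample each. In all, 27 alternatives were chosen after the data were seen. These are 9 of the 12 for light bands (all but score deciles, unstained against darkest, and both replicates required), 17 of those for recovery against FOXA1-bearing regions (bands, score with width, score deciles joined to another choice, a wider H1819 or H2087 rule, equal lists and merging without replicate 1) and the 54.5%. Depth is unknown, so a missed peak and an unbound site cannot be told apart.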

Other observations

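The highest replicate 2 score of all FOXA1-free H3122-only regions was 3100, a value that 82 replicate 2 peaks share and 13 exceed, in 11q13.4 (chr11:70750322-70752244); it was singled out after its value was seen. Replicate 1 scored 183 there, the region was 1923 bp wide, and FOXA1 was 120189 bp away. Bands at centromeres held 54 FOXA1-free regions among 92 H3122-only ones, 58.7% (48.5 to 68.2), and bands of variable heterochromatin 60 among 106, 56.6% (47.1 to 65.6). Both classes were thin there, with 0.486 FOXA1-free and 0.342 FOXA1-bearing H3122-only regions per Mb at centromeres, and 0.662 and 0.508 in variable heterochromatin. These densities use the full length of the bands. Stretches where no read can be placed were not taken out, so a low density need not mean little binding.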
